A study of Mus musculus with 6 samples.

Results

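The genes described here encode the nuclear-made subunits of the mitochondrial respiratory chain and ATP synthase. They were chosen by symbol alone: rows of the deposited gene table starting with Nduf, Sdha to Sdhd, Uqcr, Cox4 to Cox8 or Atp5, together with Cycs and Cyc1, without pseudogenes named -ps and without the assembly factors named Ndufaf or Sdhaf. Of 55334 rows, 92 matched, and 82 of these held at least 10 counts in 3 or more libraries. The 82 genes fell into complex I (36), complex II (4), complex III (9), cytochrome c (1), complex IV (15) and complex V (17). Ndufa4 and its paralog Ndufa4l2 were placed with complex IV, where the Ndufa4 protein is known to reside.

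Polyadenylated RNA was sequenced from Lewis lung carcinoma (LLC) cells, a mouse lung cancer line, recovered from tumours in the flanks of mice. All cells carried green fluorescent protein (GFP), and those sorted were GFP-positive, negative for the leukocyte antigen CD45 and negative for the dead-cell dye DAPI. The control cells carried a scrambled guide (Scramble, 3 libraries) and the others a guide for Jag2, a ligand of Notch receptors (JAG2KO, 3 libraries). The labels give no mouse strain or age, and they do not say whether either line was a clone or whether each library came from its own mouse. The p-values therefore reflect the spread among these libraries, and that spread may be technical. Scramble libraries are numbered 1 to 3, and the JAG2KO libraries are called by their deposited column names JagKO2, JagKO3 and JagKO4. JagKO2 stood apart from its group: its chi-square per degree of freedom over genes was 31 against JagKO3 and 25.4 against JagKO4, whereas the other pairs within a group had 12.2 to 15. The comparison asks how RNA of the respiratory chain differed between sorted JAG2KO and Scramble tumour cells.

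Complex I takes electrons from NADH and complex II from succinate, and both pass them through ubiquinone to complex III. Cytochrome c carries them on to complex IV, which reduces oxygen, and complex V uses the proton gradient built by complexes I, III and IV to make ATP. Complex II is wholly nuclear, whereas the cores of the other complexes also contain subunits made from mitochondrial DNA.

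RNA of the respiratory chain differed little between the groups, and the clearest difference was a lower level of Cycs, the gene of cytochrome c. In the edgeR quasi-likelihood test over all 16049 tested genes, 6 of the 82 were higher in JAG2KO (Ndufs7, Ndufs4, Sdha, Uqcrc2, Cox7a2l and Atp5f1), 4 were lower (Cycs, Ndufa5, Ndufa4 and Cox7b) and 72 did not pass the adjusted threshold of 0.05. Thus 12.2% were called, against 24.3% of all tested genes, of which 11.8% were higher and 12.5% lower. Among tested genes with a mean of at least 10 CPM (counts scaled to a common library size), 30.8% were called, and 12.8% of the 78 members in that range. The log2 differences (JAG2KO over Scramble) ran from -0.65 to 0.75, and no member reached 2-fold. Their median was 0.03, against 0.00 over all tested genes, and the median size regardless of direction was 0.11, against 0.24. With a mean of at least 10 CPM, the median size was 0.11 for members and 0.16 for tested genes.

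The split of the calls depended on the processing and on single libraries. With trends on GC content and transcript length removed from each library, 11 members were higher and 3 lower. Without Scramble1, 0 were higher, and without JagKO4, Scramble2 or Scramble3, 2 were higher in each case. The lower count was 6 without JagKO2 and 2 without Scramble3. Without JagKO2, 10 members were called, 8 of them among the 10 calls from all libraries. Cycs and Ndufa4 were called lower in all 15 alternative analyses.

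Of the 82 genes, 75 had a 95% interval inside a 1.5-fold change in either direction and 31 inside 1.2-fold. Over all 16049 tested genes these counts were 7909 and 2324. An unadjusted edgeR p under 0.05 was reached by 24 members, against 5814 of all tested genes. With a mean of at least 10 CPM, 74 of 78 members and 7378 of 9006 tested genes had an interval inside 1.5-fold. In that range 23 members and 3990 tested genes reached an unadjusted edgeR p under 0.05. The CPM values of the groups did not overlap for 27 members (32.9%), against 40.3% of all tested genes. With a mean of at least 10 CPM these shares were 33.3% and 47.8%.

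**Figure D1:**
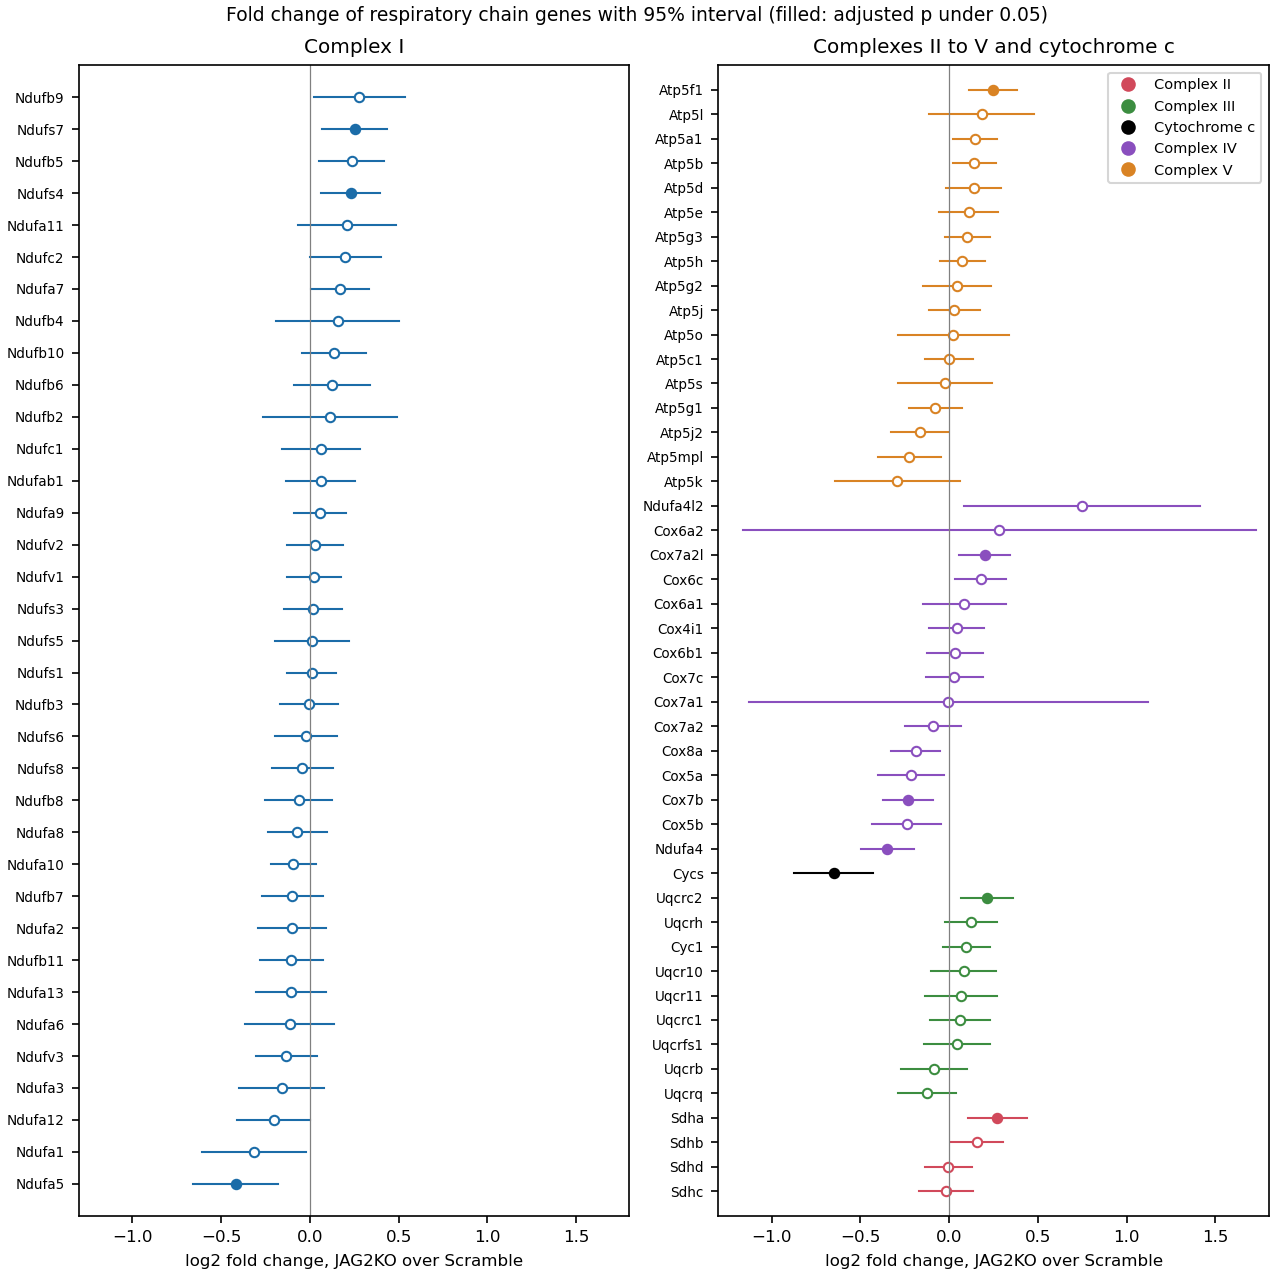
Log2 fold change of JAG2KO over Scramble for the respiratory chain genes (1 is not drawn), complex I on the left and the others on the right, with 95% intervals from the edgeR fit of 3 against 3 libraries and filled points where the adjusted p is under 0.05. Most points lie near 0, between -0.65 for Cycs and 0.75 for Ndufa4l2, which was not called and has a wide interval, as do Cox6a2 and Cox7a1.

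Library totals ranged from 37036772 to 43923565 counts. Jag2 itself measured 1.52, 1.1 and 1.02 CPM in Scramble and 0.513, 0.798 and 1.11 CPM in JAG2KO, overlapping values with a log2 difference of -0.58 (SE 0.39, adjusted p = 0.318), so its RNA does not check the labels. The lung markers Nkx2-1 and Sftpb had 0 counts in every library, while the list of 8 lung epithelial markers summed to 389 to 398 CPM in Scramble and 283 to 338 CPM in JAG2KO (0 of 4 tested higher, 1 lower). Its lower gene was Krt8, at 124 ± 4.6 and 4.13 ± 0.839 CPM, while Krt18, a keratin not past the test, had 267 ± 7.86 and 307 ± 26.4 CPM (SD, n = 3 each). Endothelial markers summed to 20.1 to 24.3 CPM and 35.9 to 52.3 CPM (5 of 7 higher), and macrophage markers to 58.2 to 66.7 CPM and 88.3 to 109 CPM (3 of 10 higher, 1 lower). Fibroblast and pericyte markers summed to 881 to 1041 CPM and 1009.9 to 1511 CPM (3 of 8 higher, 1 lower). Much of that sum was Dcn, at 373 ± 40 and 443 ± 116 CPM, which was not called. Rgs5, at 7.54 ± 1.35 and 29 ± 8.86 CPM, and Pdgfrb, at 26.8 ± 3.54 and 47.6 ± 6.59 CPM, were among the higher genes. The lower gene was Fap, at 19 ± 1.1 and 3.61 ± 1.14 CPM (SD, n = 3 each). JagKO2 had the highest Rgs5 value (38.6 CPM). Red cell markers summed to 49.6 to 58.5 CPM and 11.5 to 30.2 CPM (4 of 4 lower). Skeletal muscle markers summed to 6.94 to 48.2 CPM and 8.38 to 140.3 CPM, with 0 of 8 called by edgeR. The part of these cells in the results was not tested, and in bulk RNA fewer cells of a type and less RNA per cell cannot be told apart.

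Summed over all 82 genes, the chain held 8038, 8465 and 8435 CPM in the Scramble libraries and 8956, 8419.8 and 8600.3 CPM in JagKO2, JagKO3 and JagKO4. These sums overlap, and the ratio of their means was 1.04. Complex V had the largest share, with 3433, 3533 and 3532 CPM in Scramble and 3906, 3667 and 3779 CPM in JAG2KO. All 3 JAG2KO sums of complex V lay above the Scramble sums (ratio 1.08), JagKO2 being the highest, and a single gene, Atp5b, supplied 1593 ± 24.5 CPM (SD, n = 3) of the Scramble sum and 1758 ± 64.8 CPM (SD, n = 3) of the JAG2KO sum. Complex II summed to 675, 739 and 688 CPM in Scramble and to 826, 748 and 761 CPM in JAG2KO, again without overlap and with JagKO2 the highest (ratio 1.11). Most of that difference came from Sdha, at 330 ± 29.2 CPM in Scramble and 398 ± 24.3 CPM in JAG2KO (SD, n = 3 each). The means of Sdhb were 98.7 and 110 CPM, those of Sdhc 139 and 138 CPM and those of Sdhd 133 and 132 CPM. For complexes II and V the sums of JagKO3 and JagKO4 also lay above all Scramble sums. The mean log2 CPM, which weighs each gene alike, overlapped between the groups in both complexes. Relative to the Scramble mean it was 0.034 in JagKO3 and 0.051 in Scramble2 for complex II. For complex V it was 0.026 in JagKO2, 0.010 in JagKO3 and 0.031 in Scramble2. Complex I was close to equal, at 1896 ± 73.1 CPM (SD, n = 3) in Scramble and 1908 ± 26.9 CPM (SD, n = 3) in JAG2KO. Complex III had 725 ± 13.7 and 757 ± 39.5 CPM (SD, n = 3 each), and complex IV 1418 ± 71.4 and 1384 ± 55.8 CPM (SD, n = 3 each), both with overlapping libraries.

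**Figure D2:**
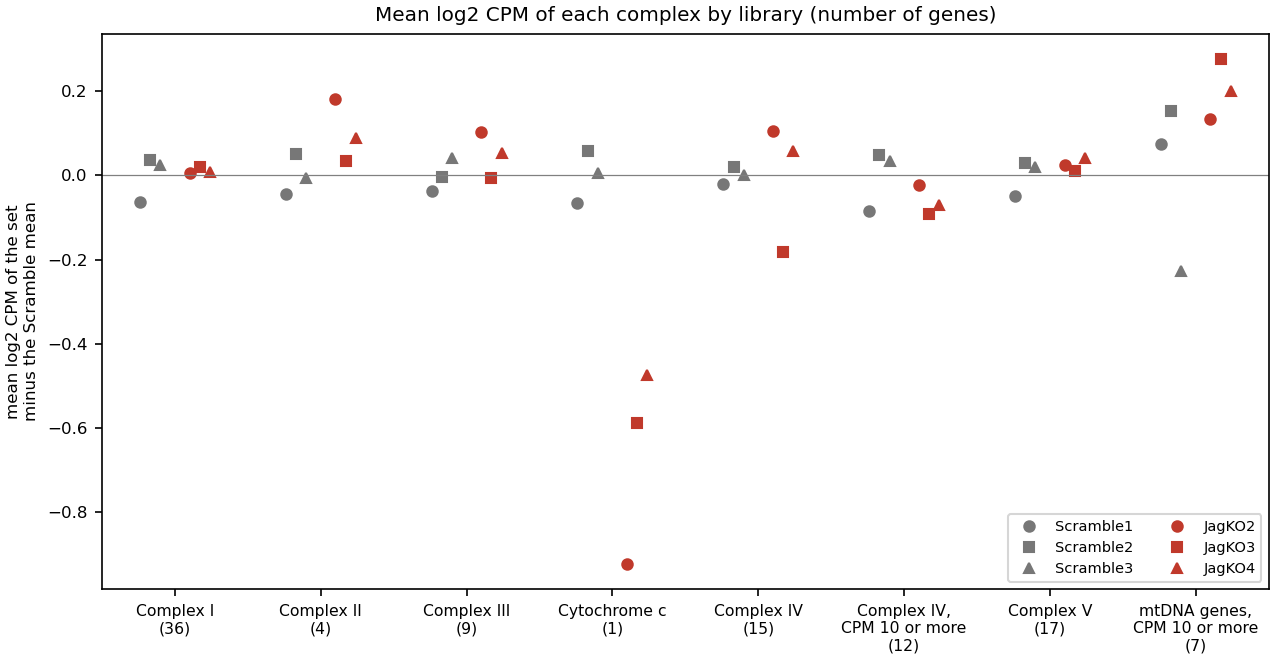
Mean log2 CPM over the genes of each complex in each library, minus the mean of the Scramble libraries, with the number of genes in brackets; complex IV is drawn also without its 3 genes under 10 CPM, and genes of mitochondrial DNA are those of at least 10 CPM. Cytochrome c lies 0.47 to 0.92 below the Scramble mean in the JAG2KO libraries, the other nuclear sets lie between -0.18 and 0.18, and Scramble3 is low for the mitochondrial genes.

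Complex I had 2 genes higher, 1 lower and 33 not called, with a median log2 difference of 0.02. Ndufs7, a core subunit that holds an iron-sulphur cluster near the ubiquinone site, measured 46.9, 54.7 and 57.7 CPM in Scramble and 63.1, 62.0 and 64.5 CPM in JAG2KO. The JAG2KO values lay close together above the more spread Scramble values (log2 difference 0.25, SE 0.08, adjusted p = 0.0447). Ndufs4, an accessory subunit whose loss is known to cause a Leigh-like brain disease in mice, measured 37.5, 40.9 and 38.6 CPM in Scramble and 44.9, 48.0 and 44.3 CPM in JAG2KO. It also rose without overlap, by a log2 difference of 0.23 (SE 0.08, adjusted p = 0.046). Both calls were near the threshold. That of Ndufs7 was lost without JagKO3, JagKO4, Scramble1 or Scramble2 (adjusted p = 0.0661, 0.13, 0.144 and 0.0729). That of Ndufs4 was lost without any library except JagKO2, with adjusted p of 0.0589 to 0.133, and also with no filter on low counts (adjusted p = 0.0534).

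Ndufa5, an accessory subunit of the peripheral arm of complex I, measured 24.2, 25.4 and 30.1 CPM in Scramble and 17.9, 21.4 and 20.3 CPM in JAG2KO. Every JAG2KO value was below every Scramble value, and the gene fell by 0.42 on the log2 scale (SE 0.11, adjusted p = 0.0162). Without Scramble3, its highest library, the log2 difference of Ndufa5 was -0.32 (adjusted p = 0.0754). The other complex I genes had log2 differences from -0.32 (Ndufa1) to 0.28 (Ndufb9). Core subunits such as Ndufs1, Ndufs3, Ndufs8, Ndufv1 and Ndufv2 lay at 0.01, 0.02, -0.04, 0.02 and 0.03, with 95% intervals from -0.22 to 0.19 at their widest.

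Complex II had 1 gene higher and 3 not called. Sdha, the flavoprotein that oxidises succinate in the citric acid cycle, measured 310.2, 363 and 316 CPM in Scramble and 426, 389 and 379.7 CPM in JAG2KO. Scramble2 came closest to the JAG2KO values but no values overlapped, and Sdha rose by a log2 difference of 0.27 (SE 0.08, adjusted p = 0.0213). Without Scramble1 or Scramble3 its log2 difference was 0.24 in each case (adjusted p = 0.0814 and 0.0862). Sdhb, the iron-sulphur subunit bound to it, had a log2 difference of 0.16 (SE 0.07, adjusted p = 0.12). The membrane anchors Sdhc and Sdhd had 95% intervals of -0.17 to 0.14 and -0.14 to 0.13.

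Complex III had 1 gene higher and 8 not called. Uqcrc2, a core protein of the complex, measured 75, 77.1 and 70.9 CPM in Scramble and 90.0, 86.0 and 82.3 CPM in JAG2KO. The groups did not overlap (log2 difference 0.21, SE 0.07, adjusted p = 0.0364), but the call was lost when any single library was left out, with adjusted p of 0.0538 to 0.138. Its partner Uqcrc1 had the highest CPM of the nuclear-encoded complex III genes. It measured 182, 189 and 183 CPM in Scramble and 215, 174 and 189 CPM in JAG2KO. JagKO2 was high and JagKO3 low for Uqcrc1, so the groups overlapped (log2 difference 0.06, adjusted p = 0.617). The Rieske iron-sulphur protein gene Uqcrfs1 and the cytochrome c1 gene Cyc1 lay at 0.04 and 0.10 and did not pass the test.

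Cycs encodes somatic cytochrome c, which carries electrons between complexes III and IV and is known to trigger caspase activation when it leaves mitochondria. It measured 70.9, 77.3 and 74.5 CPM in Scramble and 39.1, 49.3 and 53.4 CPM in JagKO2, JagKO3 and JagKO4. The highest JAG2KO value stood well under the lowest Scramble value, and JagKO2 was the lowest of all. Cycs fell by 0.65 on the log2 scale (SE 0.10, 95% interval -0.87 to -0.43, adjusted p = 0.000702), a mean change of -36.3%. Without JagKO2 its log2 difference was -0.53 (adjusted p = 0.000153). Over the 15 alternatives its log2 difference ran from -0.75 to -0.53 and its adjusted p from 5.05e-13 to 0.00455.

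**Figure D3:**
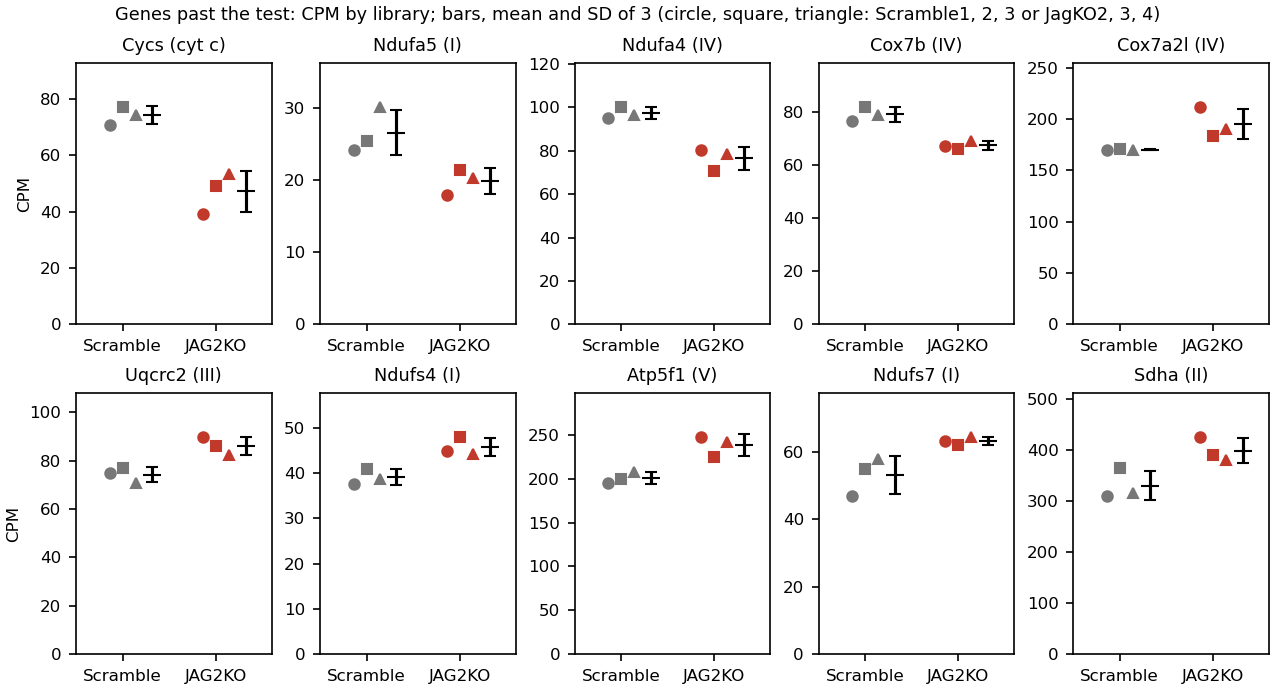
CPM of the 10 called genes in each library, 1 panel per gene with an axis from 0, grey for Scramble and red for JAG2KO, with the mean and SD of 3 libraries beside the points. The groups do not overlap in any panel, and Cycs has the widest gap for its level, with 74.2 ± 3.18 CPM in Scramble and 47.3 ± 7.36 CPM in JAG2KO.

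Complex IV had 1 gene higher, 2 lower and 12 not called. Ndufa4, an accessory subunit, measured 95, 100.2 and 96.7 CPM in Scramble and 80.3, 70.7 and 78.3 CPM in JAG2KO. The groups were well apart and the gene fell by 0.35 on the log2 scale (SE 0.07, adjusted p = 0.00305). Cox7b, a small subunit encoded on the X chromosome, measured 76.4, 82 and 78.9 CPM in Scramble and 67.1, 65.9 and 69.2 CPM in JAG2KO. It fell by 0.23 on the log2 scale (SE 0.06, adjusted p = 0.0207), with narrow ranges in both groups. The Cox7b call was lost without JagKO3, Scramble2 or Scramble3 (adjusted p = 0.0613, 0.107 and 0.0522).

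Cox7a2l, a factor known for joining complexes III and IV into supercomplexes, measured 169.7, 170.4 and 169.6 CPM in Scramble and 212, 184 and 189.8 CPM in JAG2KO. The Scramble values were nearly identical and JagKO2 was the highest library (log2 difference 0.20, SE 0.07, adjusted p = 0.0475). Without JagKO2 the log2 difference of Cox7a2l was 0.14 (adjusted p = 0.114), and its call was also lost without JagKO4, Scramble1, Scramble2 or Scramble3, with adjusted p of 0.0846 to 0.121. Cox8a, a small subunit, lay just outside the threshold with 179, 199 and 193 CPM in Scramble and 171, 167 and 163 CPM in JAG2KO. Its log2 difference was -0.19 (SE 0.06, adjusted p = 0.0502), it did not overlap between the groups, and it was called lower in 5 of 15 alternatives, including the one without JagKO2 (adjusted p = 0.0348). Cox5a and Cox5b, small subunits near the catalytic core, lay at -0.22 and -0.24 (adjusted p = 0.0851 and 0.0721). Cox4i1 had the highest CPM of the nuclear-encoded complex IV genes. Its values were 210.3, 195 and 218 CPM in Scramble and 231, 201 and 209 CPM in JAG2KO. These overlap (log2 difference 0.04, 95% interval -0.11 to 0.20, adjusted p = 0.713).

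Several subunits of complex IV have a common form and a form known mainly from lung (Cox4i2), heart and muscle (Cox6a2, Cox7a1, Cox8b) or testis (Cox6b2). The common forms held nearly all reads per kilobase of exons in every library. Cox4i1 held at least 99.3% of its pair, Cox6a1 at least 99.8%, Cox8a at least 99.7%, Cox6b1 at least 98.7% and Cox7a2 at least 97.1%. Cox6a2 was just inside the count minimum, with 27 counts over the Scramble libraries and 31 over the JAG2KO libraries, and Cox7a1 had 79 and 74. Just outside the minimum were Cox4i2, with 19 and 66 counts, and Cox6b2, with 5 and 84 counts, of which 59 were in JagKO4. Cox7b2 had 0 counts in every library.

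Ndufa4l2, the paralog of Ndufa4 and known to be induced by hypoxia, measured 2.2, 1.99 and 2.06 CPM in Scramble and 5.3, 2.93 and 2.31 CPM in JAG2KO. All JAG2KO values lay above the Scramble values, with JagKO2 far above the others (log2 difference 0.75, SE 0.30, adjusted p = 0.0958). Without JagKO2 it was 0.33 (adjusted p = 0.429), and without JagKO4 it was 0.98 (adjusted p = 0.0436). Ndufa4l2 made up 2.45% to 7.68% of the reads per kilobase of the Ndufa4 pair. Fibroblast and pericyte markers are given above, and the part of such cells in the Ndufa4l2 and Cox4i2 values was not tested.

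Complex V had 1 gene higher and 16 not called, with a median log2 difference of 0.04. Atp5f1, the b subunit of the peripheral stalk, measured 195, 199.9 and 208 CPM in Scramble and 248, 225 and 242 CPM in JAG2KO. The groups did not overlap (log2 difference 0.25, SE 0.06, adjusted p = 0.014). Without JagKO4 or Scramble1 the adjusted p of Atp5f1 was 0.057 or 0.0519. Atp5b encodes the catalytic beta subunit and was the most abundant RNA among the nuclear-encoded members. It measured 1566, 1614 and 1599 CPM in Scramble and 1830.1, 1705 and 1739 CPM in JAG2KO. Its groups were apart but it did not pass the test (log2 difference 0.14, SE 0.05, adjusted p = 0.0815), and Atp5a1, the alpha subunit of the same head, lay at 0.15 (adjusted p = 0.0819). Atp5mpl, Atp5j2 and Atp5k, small proteins of the membrane part, lay below 0 at -0.22, -0.17 and -0.29. Atp5l, another of that part, lay at 0.18, and none of these passed the test. Of the 17 genes of complex V, 11 lay above 0 and 6 below.

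The genes Atp5g1, Atp5g2 and Atp5g3 encode the same mature protein of the rotor ring and differ in their import sequences. Their log2 differences were -0.08, 0.04 and 0.10, none past the test. Of the reads per kilobase over the 3 genes, Atp5g1 held 9.08% to 11.3%, Atp5g2 29.7% to 35.3% and Atp5g3 54.8% to 59.9% in the 6 libraries.

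Levels of different genes are compared as CPM per kilobase of merged exons, as means over the 6 libraries. Among the nuclear-encoded members Atp5b was highest (395), followed by Cox8a (289), Cox6a1 (257), Atp5a1 (179) and Cox4i1 (136). Per kilobase of the longest transcript, Atp5b (875), Cox8a (325) and Cox6a1 (291) kept this order and Cox4i1 (275) stood above Atp5a1 (209). The lowest levels per kilobase of merged exons were those of Cox6a2 (0.344), Cox7a1 (1.15), Atp5l (1.57), Ndufb2 (1.86) and Ndufa4l2 (2.55). Many of these genes have processed copies elsewhere in the genome, and the sources used here do not say how reads with several matches were counted, so low levels are uncertain. Strand settings are not known either. Exons on the opposite strand overlap 8.21% of the exonic bases of Atp5f1 (Wdr77), 19.8% of Uqcrc2 (Pdzd9), 9.94% of Cox4i1 (Emc8) and 2.92% of Ndufa4l2 (Shmt2, with 80426 counts against 671).

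Promoter sequence was examined because many respiratory chain promoters are known targets of the transcription factor NRF1 and of the ETS factor GABPA. The RefSeq promoter table (GRCm38.p6) matched 67 of the 82 genes, and the 250 bases before each start were searched on both strands. The NRF1 consensus occurred in 12 of the 67 (17.9%), against 3.9% of all 27025 genes of the table and 8.2% of the 10995 with at least 55% GC. The ETS motif CCGGAAG occurred in 16.4%, against 7.1% and 12.2%, and the hypoxia core ACGTG in 22.4%, against 16.6% and 21.8%. Shown are the promoters of Cycs, Ndufa4 and Cox7b, which fell, and of Cox6a1 and Ndufs5, which carry the NRF1 consensus and were not called (adjusted p = 0.611 and 0.945). They are read 5′ to 3′ along each gene's strand, without bases in annotated UTRs, at chr6:50566570-50566819 (minus), chr6:11907498-11907700 (minus), chrX:106015450-106015699 (plus), chr5:115348982-115349208 (minus) and chr4:123718203-123718436 (minus). Capitals mark the hypoxia core, read on the opposite strand, in Cycs and the NRF1 consensus in Cox6a1 and Ndufs5, and the runs of Ndufa4 and Cox7b held no match.
Cycs: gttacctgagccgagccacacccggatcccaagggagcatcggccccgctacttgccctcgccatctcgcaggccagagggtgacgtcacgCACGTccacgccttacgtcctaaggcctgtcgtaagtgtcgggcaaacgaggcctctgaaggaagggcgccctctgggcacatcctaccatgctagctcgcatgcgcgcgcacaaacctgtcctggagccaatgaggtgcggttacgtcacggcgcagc
Ndufa4: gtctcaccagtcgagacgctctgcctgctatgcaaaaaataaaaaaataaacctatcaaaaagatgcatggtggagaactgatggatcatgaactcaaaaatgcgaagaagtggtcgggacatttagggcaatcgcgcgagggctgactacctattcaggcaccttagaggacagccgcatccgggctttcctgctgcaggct
Cox7b: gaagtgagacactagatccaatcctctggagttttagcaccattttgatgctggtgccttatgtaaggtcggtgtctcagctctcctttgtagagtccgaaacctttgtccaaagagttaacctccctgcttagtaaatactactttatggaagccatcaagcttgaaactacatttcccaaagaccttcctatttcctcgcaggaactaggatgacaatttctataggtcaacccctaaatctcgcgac
Cox6a1: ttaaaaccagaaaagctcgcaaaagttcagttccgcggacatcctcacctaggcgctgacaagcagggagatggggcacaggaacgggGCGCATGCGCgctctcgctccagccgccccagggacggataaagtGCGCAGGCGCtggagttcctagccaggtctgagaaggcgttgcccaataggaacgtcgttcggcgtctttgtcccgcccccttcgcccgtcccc
Ndufs5: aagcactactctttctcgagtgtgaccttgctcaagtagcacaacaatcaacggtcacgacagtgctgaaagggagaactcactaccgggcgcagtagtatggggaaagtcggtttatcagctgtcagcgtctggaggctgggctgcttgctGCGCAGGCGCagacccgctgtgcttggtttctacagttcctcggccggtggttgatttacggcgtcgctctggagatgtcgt

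Called genes occurred both with and without the NRF1 consensus. Of the 12 genes with the NRF1 consensus, 1 was higher (Sdha, with 3 matches), 1 lower (Ndufa5) and 10 not called, with a median log2 difference of 0.03. The 55 matched genes without it had 4 higher and 3 lower, and a median of 0.03. Of 11 genes with the ETS motif, 0 were called by edgeR, and of 15 with the hypoxia core 2 were higher and 1 lower. A match is a run of letters and does not show binding, and a gene without an exact match can hold a near match, as Cycs does for NRF1.

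The genes that fell were unevenly placed in the genome. Ndufa4 (GRCm38 chromosome 6, 11900292 to 11907497), Ndufa5 (24518666 to 24528013) and Cycs (50562563 to 50566538), all on the minus strand, are numbers 36, 63 and 211 in order among the 813 tested genes of chromosome 6. On that chromosome 12.1% of tested genes were higher and 23.1% lower. Among the 20 tested genes nearest to Ndufa4, 8 were lower and 2 higher, with a median log2 difference of -0.35, the same as that of Ndufa4. Around Ndufa5 the median was -0.32, so the gene lay 0.10 below it, and around Cycs it was -0.20, so Cycs lay 0.45 below it. Ndufb2, in the same stretch of the chromosome, had a log2 difference of 0.11 where its neighbours had a median of -0.33, and Ndufa9, toward the far end, had 0.06 beside -0.01. Cox7b (chromosome X, 106015700 to 106022450, plus strand) lay at -0.23 with a neighbour median of -0.07, and of 481 tested genes of the X chromosome 22 were higher and 96 lower.

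The genes that rose also differed in their surroundings. Atp5f1 (chromosome 3, 105942698 to 105960099) had a neighbour median of 0.24, close to its own 0.25, and 24.2% of the 830 tested genes of chromosome 3 were higher. Around Sdha (chromosome 13, 74322254 to 74350280) the median was 0.16 and around Ndufs7 (chromosome 10, 80249121 to 80256794) it was 0.09. Uqcrc2, Ndufs4 and Cox7a2l had neighbour medians of 0.02, 0.00 and -0.02. Across the 82 members, the log2 difference and the neighbour median had a Pearson r of 0.53 and a Spearman rho of 0.54, and for the 77 members off chromosome 6 these were 0.49 and 0.52. These are descriptions across genes measured in the same 6 libraries, and whether position bears on the calls was not tested.

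**Figure D4:**
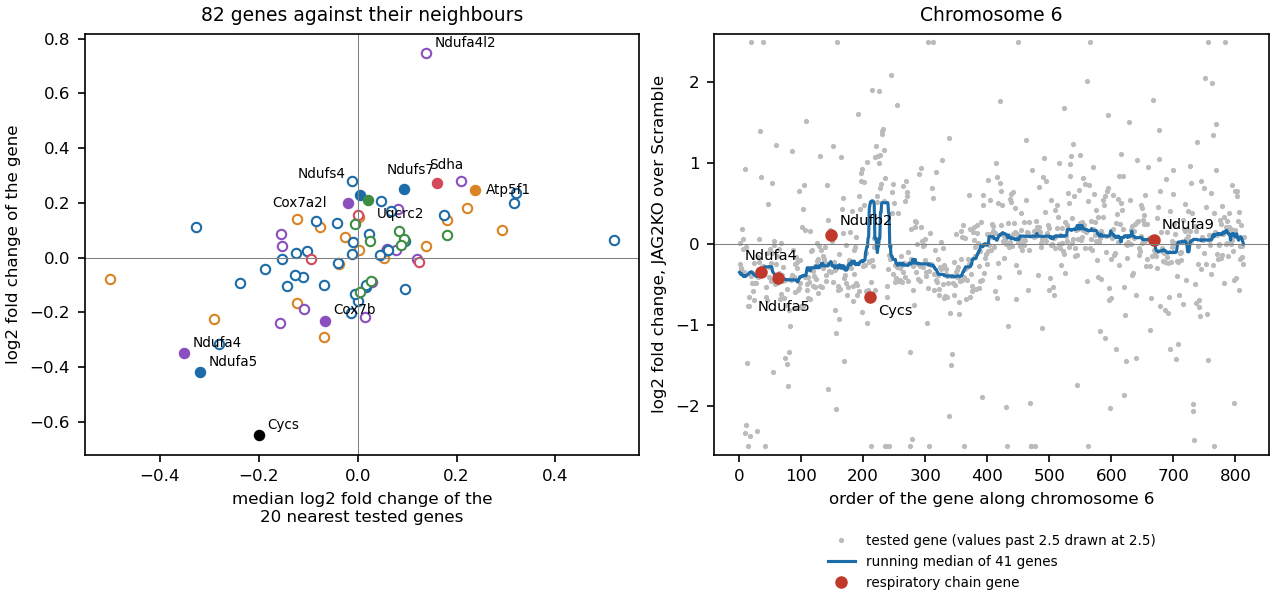
Left, log2 fold change of each of the 82 genes against the median of its 20 nearest tested genes, coloured by complex (blue I, red II, green III, black cytochrome c, purple IV, orange V) and filled where called. Right, log2 fold change of the tested genes of chromosome 6 in order, with a running median of 41 genes: Ndufa4 and Ndufa5 lie on the median line below 0, Cycs lies under it and Ndufb2 above it.

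Respiratory chain transcripts are short, with a median longest transcript of 1087.5 bases against 2990.5 over all tested genes. With the GC and length trends of each library removed, the median log2 difference of the members was 0.09, against -0.01 over all genes, and 17.1% were called, against 24.5%. Of the 10 calls 8 were kept. Atp5f1 was lost with a log2 difference of 0.22 in place of 0.25 (adjusted p = 0.0543), and Cox7b with -0.12 in place of -0.23 (adjusted p = 0.185). Cox6c, Ndufa7, Ndufb10, Ndufb5, Sdhb and Uqcrh were then called higher. Cycs, Ndufa4 and Ndufa5 were still called lower.

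**Figure D5:**
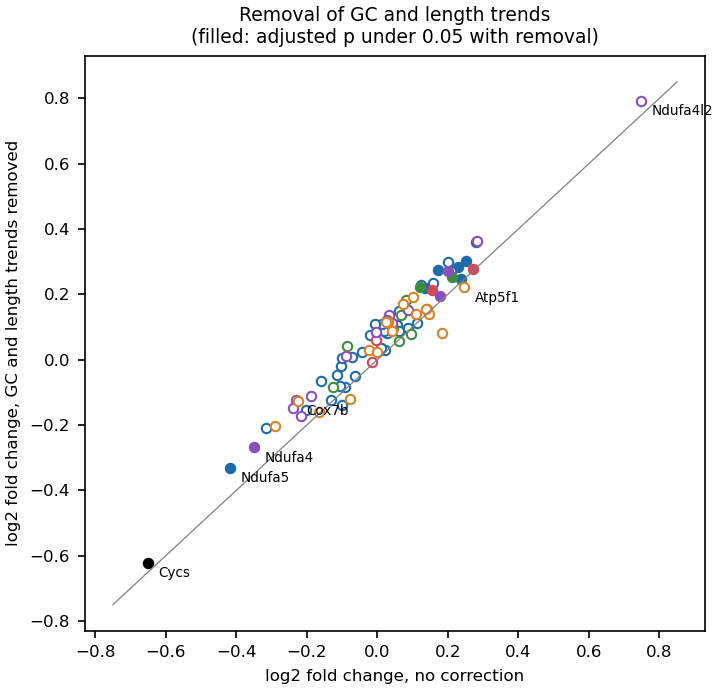
Log2 fold change of the 82 genes without (horizontal) and with (vertical) removal of GC and length trends, coloured by complex (blue I, red II, green III, black cytochrome c, purple IV, orange V) and filled where the adjusted p with removal is under 0.05; the line marks equal values. Most points lie slightly above the line, and Cycs, Ndufa4 and Ndufa5 stay at the lower left.

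Of the 13 subunits encoded by mitochondrial DNA, 12 were tested (mt-Nd3 was under the filter), 1 was higher and 0 lower, with a median log2 difference of 0.16. The higher gene, mt-Nd6 of complex I, measured 43.4, 39.3 and 31.4 CPM in Scramble and 50.4, 48.4 and 47.4 CPM in JAG2KO (log2 difference 0.36, SE 0.11, adjusted p = 0.0288). It overlaps mt-Nd5 on the opposite strand, and its call was lost without JagKO3, JagKO4, Scramble2 or Scramble3 (adjusted p = 0.0566 to 0.0925). The complex I genes mt-Nd1, mt-Nd2, mt-Nd4 and mt-Nd5 lay at 0.16, 0.17, 0.30 and 0.28, with adjusted p of 0.123, 0.263, 0.0708 and 0.0508. Of 14 alternatives, mt-Nd5 was called higher in 9, mt-Nd4 in 4 and mt-Nd1 in 2. Single libraries were among these: without JagKO2 the adjusted p of mt-Nd5 and mt-Nd4 was 0.0302 and 0.0228, and without Scramble2 that of mt-Nd5, mt-Nd4 and mt-Nd1 was 0.0272, 0.0401 and 0.0499. The main catalytic subunit gene of complex IV, mt-Co1, had 2304, 2463 and 1863 CPM in Scramble and 2520.4, 2494 and 2406 CPM in JAG2KO, overlapping values with a log2 difference of 0.16 (adjusted p = 0.202). The complex III gene mt-Cytb lay at -0.05 (adjusted p = 0.751). Scramble3 was the lowest Scramble library for each of the 7 genes with at least 10 CPM. The other 5 genes tested stayed under 4 CPM: mt-Co2 and mt-Co3 had means of 2.88 and 2.67 CPM in Scramble and 2.97 and 2.69 CPM in JAG2KO, mt-Atp6 and mt-Atp8 had 1.86 and 1.32 CPM and then 2.16 and 0.845 CPM, and mt-Nd4l had 0.414 and 0.472 CPM. Mitochondrial DNA has nuclear copies that can share reads with it, so these levels are uncertain.

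Genes that assemble the chain or supply it were read from lists of known members. Of 45 tested assembly factors 2 were higher and 5 lower (15.6% called, median -0.05). Coa3, a factor for complex IV, fell from 47.1 ± 0.758 CPM to 37.6 ± 1.43 CPM (SD, n = 3 each), and Timmdc1, a factor for complex I, fell by 0.38 on the log2 scale (adjusted p = 0.0151), a call lost without JagKO4, Scramble1 or Scramble2 (adjusted p = 0.0663 to 0.0772). Of 77 genes of the mitochondrial ribosome, which makes the subunits of mitochondrial DNA, 3 were higher and 12 lower (19.5% called, median -0.06). Mrpl50 and Mrpl49, of its large subunit, fell by 0.55 and 0.39 on the log2 scale (adjusted p = 0.000332 and 0.00128). Of 18 genes of pyruvate dehydrogenase and the citric acid cycle, 3 were higher and 5 lower (44.4% called, median 0.00). Idh2, the mitochondrial NADP-dependent isocitrate dehydrogenase, rose from 151 ± 2.32 to 192 ± 3.18 CPM (SD, n = 3 each), while Dlst, a subunit of the 2-oxoglutarate dehydrogenase complex, fell from 254 ± 5.89 to 187 ± 6.56 CPM (SD, n = 3 each).

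Of 16 regulators of mitochondrial gene expression, 4 were higher and 0 lower (25% called, median -0.07). Ppargc1b, a coactivator of respiratory genes, measured 3.4, 2.73 and 3.28 CPM in Scramble and 5.78, 7.34 and 5.86 CPM in JAG2KO, and rose by a log2 difference of 1.01 (SE 0.19, adjusted p = 0.00244). Gabpb1, whose product pairs with GABPA, rose from 34.6 ± 1.16 to 45.2 ± 3.9 CPM (SD, n = 3 each, adjusted p = 0.00567). Of 14 genes of cristae and of mitochondrial carriers and channels, 0 were higher and 4 lower (28.6% called, median -0.06). Chchd3 and Immt, partners in the complex that shapes cristae, fell by 0.40 and 0.34 on the log2 scale (adjusted p = 0.000664 and 0.00145), and both lie on chromosome 6. Of 14 genes tied to the control of respiration by oxygen, 2 were higher and 5 lower (50.0% called, median -0.08). Bnip3, a mitophagy receptor induced by hypoxia, fell from 80.5 ± 6.25 to 45.8 ± 5.37 CPM, and Epas1, which encodes HIF-2 alpha and is abundant in endothelial cells, rose from 3.24 ± 0.178 to 8.6 ± 1.69 CPM (SD, n = 3 each). Endothelial markers were higher in JAG2KO as given above, and their part in the Epas1 value was not tested.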

How the data were processed

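RNA was measured by sequencing in 6 libraries, 3 Scramble and 3 JAG2KO. The authors deposited 1 table of whole-number counts per gene, with 55334 rows of versioned Ensembl IDs. Per the submitters' processing notes the tools were STAR 2.7.7a with HTSeq 0.11.2, while settings, build, annotation and strand are not given in sources used here. Symbols were found for 55154 IDs, coordinates come from GENCODE M21 (GRCm38), and the remaining IDs held 0.00156% to 0.00223% of counts.

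Genes passing filterByExpr (minimum count 10, minimum total 15) were compared in R 4.3.3 with edgeR 4.0.16 (TMM factors, quasi-likelihood test, 4 residual degrees of freedom), with Benjamini-Hochberg adjustment over all tested genes, called under 0.05. CPM uses TMM-scaled totals, and 3 counts are worth 0.068 to 0.0811 CPM, which limits low genes. The mean log2 CPM of each set was taken without a prior count, so genes with few counts weigh on it. The fit of the GC and length trends used log2 CPM with a prior count of 2. Chi-square per degree of freedom was 12.2 to 31 for libraries of the same group (highest for JagKO2), above sampling noise, so all 6 were kept as separate.

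The members and lists were chosen with earlier results of these data known. Named with values were Jag2, up to 4 called members of each complex with the smallest p and its member with the highest CPM, both members of an isoform pair where either was called, the 2 called genes of each list with the smallest p and all mitochondrial DNA genes, and 1 gene under this rule is left unreported. Other members are named by role or by nearness to the threshold, after their values were seen.

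The 15 alternatives were RLE factors, library totals alone, totals without mitochondrial genes, no filter, a filter of CPM 1 or of 10 counts in 3 libraries, DESeq2 1.42.0, limma-voom (limma 3.58.1), removal of per-library GC and length trends (splines, 5 degrees of freedom, 16038 genes) and each library left out in turn. On simulated counts for the real genes with 200 changed (3 draws, 16049 genes), edgeR recovered 54.9% of genes changed 1.5-fold, 63.3% of those changed 2-fold and 91.8% of those changed 4-fold. Genes that had not been changed made up 5.52% of the calls. The simulation changed far fewer genes than the 3896 called in the data, and it drew them from all tested genes. Members have a median of 62.3 CPM, against 16.2 CPM over all tested genes. The simulated rates therefore do not give the share of changes that would be found among the members. Figures were drawn with matplotlib 3.10.9.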

Additional observations from a re-analysis of the deposited data

How the results depend on the processing

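With GC and length trends removed, 11 respiratory chain genes were called higher, and the median log2 fold change was 0.088 over all members, 0.085 in complex I and 0.12 in complex V. Leaving out 1 library at a time gave 2705 to 4019 called genes in all, 0 (without Scramble1) to 5 (without JagKO3) members called higher and 2 (without Scramble3) to 6 (without JagKO2) called lower. The member median then ran from 0.01 to 0.05, and those of complexes I and II from -0.01 to 0.04 and from 0.05 to 0.12. In complex III it ran from 0.0092 (without JagKO2) to 0.12 (without JagKO3), in complex IV from -0.10 (without JagKO4) to 0.054 (without Scramble2) and in complex V from 0.023 (without Scramble1) to 0.080 (without JagKO3). The cause of these shifts was not tested. A left-out library leaves 2 against 3. DESeq2 called 13 members, adding Atp5a1, Cox8a and Ndufb5, and the other scaling and filter alternatives called 10 to 12, with Ndufs4 lost and Cox5b gained when no filter was used. No named result reversed its direction while called. Genes under 1 CPM, such as Cox6a2 (0.234) and Cox7a1 (0.614), have intervals too wide to place at this depth. No paired analysis was possible because the JAG2KO columns carry numbers that do not match the numbers in the sample titles.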

Other observations

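Some subunits have symbols outside the rule. Usmg5, a small subunit of ATP synthase, measured 74.6, 76.1 and 83.3 CPM in Scramble and 61.3, 61.5 and 62.3 CPM in JAG2KO. The groups did not overlap, and its log2 difference was -0.34 (SE 0.07, edgeR adjusted p = 0.00336). Ndufb1-ps, the mouse locus of a complex I subunit, measured 16.8, 18.7 and 19.2 CPM in Scramble and 15.3, 14.4 and 13.5 CPM in JAG2KO, with a log2 difference of -0.34 (edgeR adjusted p = 0.0364). Atpif1, the inhibitor of ATP hydrolysis by complex V, measured 27.7, 28.6 and 28.9 CPM in Scramble and 37.7, 31.2 and 32.6 CPM in JAG2KO, which do not overlap (log2 difference 0.25, edgeR adjusted p = 0.0652). These 3 genes were named for their roles in the same complexes, after their values were seen. Among the rows under the count minimum, Cox8b had 3 counts over the Scramble libraries and 17 over the JAG2KO libraries, of which 13 were in JagKO4. In the same order Ndufb4c had 21 and 16, Ndufs6b 11 and 2, Cox6c2 8 and 15 and Ndufa11b 3 and 6. Cox8c and a second ID of Atp5o had 0 counts in every library.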
